A study of Mus musculus with 8 samples.

Results

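This account covers the hemoglobin and red blood cell genes in CT26 tumors, a colon carcinoma line of BALB/c mice grown under the skin of mice. The 9 genes are Hba-a1, Hba-a2, Hbb-bt, Hbb-bs, Hbb-b1, Hbb-b2, Alas2, Slc4a1 and Ahsp. They were chosen by name among the genes that were lower in every treated group of these same arrays, so their differences from vehicle are given below as a description, with no test. The array carried 9 probes for 8 of the 9 genes, none of them under the name Hbb-bs. Of the 21616 genes that could be tested, 7 were members. The probe of Ahsp was too dim for the fit.

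Mice received vehicle, TP-16, anti-PD-1 or both agents after 500000 CT26 cells had been implanted, and tumor RNA was hybridised after 2 weeks of treatment. TP-16, called BY001 in the sample labels, is an antagonist of the prostaglandin E2 receptor EP4 and was given by mouth every day at 75 mg/kg. Anti-PD-1, an antibody that blocks the checkpoint receptor PD-1, was injected into the peritoneum at 50 µg per mouse with 2 doses a week, and the combination group received both at these doses. The mice were females of 6 to 10 weeks, of the BALB/c strain in the study's CT26 models, and the vehicle of TP-16 was 0.5% CMC-Na. The study's methods also name a rat isotype control antibody, without saying which mice received it. Each group had 2 one-color Agilent arrays. No label says that they came from separate animals or whether tumors were pooled, so the p-values measure the spread between these arrays, which may be technical.

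Hemoglobin is a tetramer of α and β globin chains, each holding a heme. In mice the α chains come from a pair of nearly identical genes, Hba-a1 and Hba-a2, and the adult β chains from a pair of genes whose names depend on the strain, Hbb-bs and Hbb-bt in some strains and Hbb-b1 and Hbb-b2 in others, among them BALB/c. Alas2 is the erythroid enzyme for the first step of heme synthesis, Slc4a1 is band 3, the anion exchanger of the red cell membrane, and Ahsp is the chaperone that holds free α chains. Young red cells still carry globin mRNA after losing the nucleus, so whole-tissue RNA holds globin transcripts wherever blood is present. In such bulk RNA, fewer red cells and less globin RNA per cell cannot be told apart.

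To show what the globin values measured, the coding-region probes of an α and a β gene are printed as the array design gives them, 5′ to 3′. Each is 60 bases long.
Hba-a1: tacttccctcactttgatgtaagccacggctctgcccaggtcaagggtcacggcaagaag
Hbb-b2: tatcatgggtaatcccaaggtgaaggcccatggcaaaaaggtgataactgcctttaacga
The other Hba-a1 probe lies at the 3′ end of the transcript (mm9 chr11:32184427-32184486) and the Hba-a2 probe at the same place in the neighboring copy (mm9 chr11:32197245-32197304). These last probes are the same stretch moved by 1 base and share 59 bases, and every α probe lists the transcripts of both genes as targets. The probes thus cannot separate Hba-a1 from Hba-a2. Both are kept as members in the counts below, where they are not independent of each other. The Hbb-b1 probe (mm9 chr7:110976379-110976438) also lists the transcript of Hbb-bs, and the Hbb-b2 probe that of Hbb-b1. In BALB/c mice, whose adult β genes are Hbb-b1 and Hbb-b2, the Hbb-bt probe bears the name of a gene of other strains. Which transcript it reads there was not tested, and the β probes may not be independent of each other. The Hbb-bt probe lies at mm9 chr7:110961105-110961164, the Alas2 probe at chrX:147004993-147005052 and the Slc4a1 probe at chr11:102210256-102210315, and the array design gives no position for the Hbb-b2 and Ahsp probes.

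The 250 bases before the members' start sites are also shown, from RefSeq (GRCm38.p6). The table used holds 5 of the 9 genes, and 4 of these are printed. Capitals mark matches on either strand to words of erythroid and basal promoter elements: AGATAA or AGATAG or TGATAA or TGATAG for the GATA element, the word CACCC, the word CCAAT and the word TATAA. The stretches are Hba-a1 (chr11:32283422-32283671, plus strand), Hbb-bt (chr7:103813924-103814173, minus strand), Hbb-bs (chr7:103827929-103828178, minus strand) and Alas2 (chrX:150547167-150547416, plus strand).
Hba-a1: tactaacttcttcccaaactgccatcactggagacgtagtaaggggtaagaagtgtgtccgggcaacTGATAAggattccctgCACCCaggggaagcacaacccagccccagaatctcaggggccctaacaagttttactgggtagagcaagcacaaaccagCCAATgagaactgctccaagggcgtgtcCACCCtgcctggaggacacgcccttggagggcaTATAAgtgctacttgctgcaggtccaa
Hbb-bt: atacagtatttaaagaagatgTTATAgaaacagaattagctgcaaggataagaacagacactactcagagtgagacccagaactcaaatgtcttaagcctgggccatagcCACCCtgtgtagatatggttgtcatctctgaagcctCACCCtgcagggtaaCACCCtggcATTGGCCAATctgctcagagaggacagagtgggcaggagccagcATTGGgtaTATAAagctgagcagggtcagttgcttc
Hbb-bs: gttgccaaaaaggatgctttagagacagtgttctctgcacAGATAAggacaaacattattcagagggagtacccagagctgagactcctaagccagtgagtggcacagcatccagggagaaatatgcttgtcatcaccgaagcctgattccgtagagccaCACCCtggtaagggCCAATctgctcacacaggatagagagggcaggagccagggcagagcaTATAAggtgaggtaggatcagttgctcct
Alas2: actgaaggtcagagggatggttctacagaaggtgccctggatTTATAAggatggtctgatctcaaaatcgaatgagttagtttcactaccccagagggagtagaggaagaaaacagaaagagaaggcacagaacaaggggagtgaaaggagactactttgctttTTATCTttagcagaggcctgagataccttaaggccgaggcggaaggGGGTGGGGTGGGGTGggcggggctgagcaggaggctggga
The Hba-a2 stretch was identical to that of Hba-a1 over 247 bases after a shift of 3. A GATA word was found in 4 of the 5 stretches, against 26.5% of all 32851 promoter stretches of that length. The word CACCC was in all 5 (52% of all promoters), CCAAT in 4 (33.8%) and TATAA in 5 (22.8%). All 4 kinds of word were in 3 of the 5 stretches (Hba-a1, Hba-a2 and Hbb-bs) and in 1.08% of all promoters. Hba-a1 and Hba-a2 hold nearly the same stretch yet count as 2 in each of these numbers. The words were picked as erythroid and basal promoter elements, so no enrichment is read from the counts. The words in Alas2 overlapped in places, since TTATAA reads the same on both strands. These matches describe the letters in the window and say nothing on binding in the tumors.

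The α globin signal was lower in every treated group than with vehicle. Values are log2 signals relative to the 75th percentile of each array, and levels are not compared between genes, only how a gene's value, or the difference between a pair of probes, changed from array to array. The 3′ probe of Hba-a1 read 8.68 and 8.07 on the vehicle arrays, 6.53 and 6.32 with TP-16, 7.04 and 7.09 with anti-PD-1, and 5.93 and 6.27 with the combination. Both vehicle arrays lay above all 6 treated arrays, and the anti-PD-1 arrays lay above those of TP-16 and the combination. Relative to vehicle the signal was 3.86-fold lower with TP-16, 2.48-fold lower with anti-PD-1 and 4.84-fold lower with the combination. The coding probe of Hba-a1 read 7.06 and 6.24 with vehicle, 4.71 and 4.59 with TP-16, 5.25 and 5.34 with anti-PD-1, and 4.35 and 4.64 with the combination. Its folds were 4.005, 2.56 and 4.46 in the same order, close to those of the 3′ probe. The Hba-a2 probe gave 3.81-, 2.43- and 4.75-fold lower signals. Each α probe was printed at 10 spots per array, whose coefficient of variation was between 1.12% and 4.85%.

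The adult β globins showed the largest differences among the members. Hbb-bt read 6.72 and 5.84 with vehicle, 4.26 and 3.91 with TP-16, 4.41 and 4.59 with anti-PD-1, and 3.63 and 3.85 with the combination. It was 4.57-fold lower with TP-16, 3.44-fold lower with anti-PD-1 and 5.83-fold lower with the combination. Hbb-b2 read 6.05 and 5.12 with vehicle against 3.0027 and 3.21 with the combination, with 3.62 and 3.36 for TP-16 and 3.87 and 4.02 for anti-PD-1. The Hbb-b1 probe, which also targets Hbb-bs, read 3.95 and 3.32 with vehicle, 1.60 and 1.35 with TP-16, 2.04 and 2.06 with anti-PD-1, and 0.97 and 1.29 with the combination. For each β probe the vehicle arrays did not overlap any treated array, and combination 1 was the lowest of the 8 arrays. Within an array, the log2 difference between Hba-a1 (3′ probe) and Hbb-bt was 1.96 and 2.23 on the vehicle arrays and between 2.27 and 2.63 on the treated arrays. The β signal was thus lower by more than the α signal for this probe pair. For the coding probes of Hba-a1 and Hbb-b2 the same difference was 1.01 and 1.12 with vehicle and 1.09 to 1.43 with treatment, which overlap.

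Alas2 was also lower in every treated group. It read 1.11 and 0.25 with vehicle, −0.99 and −1.31 with TP-16, −0.88 and −0.80 with anti-PD-1, and −1.52 and −1.09 with the combination, which is 3.56-, 2.88- and 3.97-fold lower than vehicle. Its difference was smaller than that of any globin with TP-16 and the combination, and larger than those of Hba-a1 and Hba-a2 with anti-PD-1. Slc4a1 was dim, well above background on 6 of the 8 arrays. It read −2.77 and −2.98 with vehicle, −3.85 and −4.13 with TP-16, −3.79 and −4.50 with anti-PD-1, and −4.58 and −4.18 with the combination, and the second anti-PD-1 and the first combination value were not well above background. Its signal was 2.17-fold lower than vehicle with TP-16, and 2.42- and 2.84-fold lower by group means with anti-PD-1 and the combination, where 1 of 2 arrays measured it above background. Ahsp was well above background on vehicle 1 alone, at −3.40, with −4.27 on vehicle 2 and values between −6.70 and −5.03 on the treated arrays. As vehicle 2 was itself not above background, no fold is given for Ahsp. No probe of any array was saturated.

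**Figure D1:**
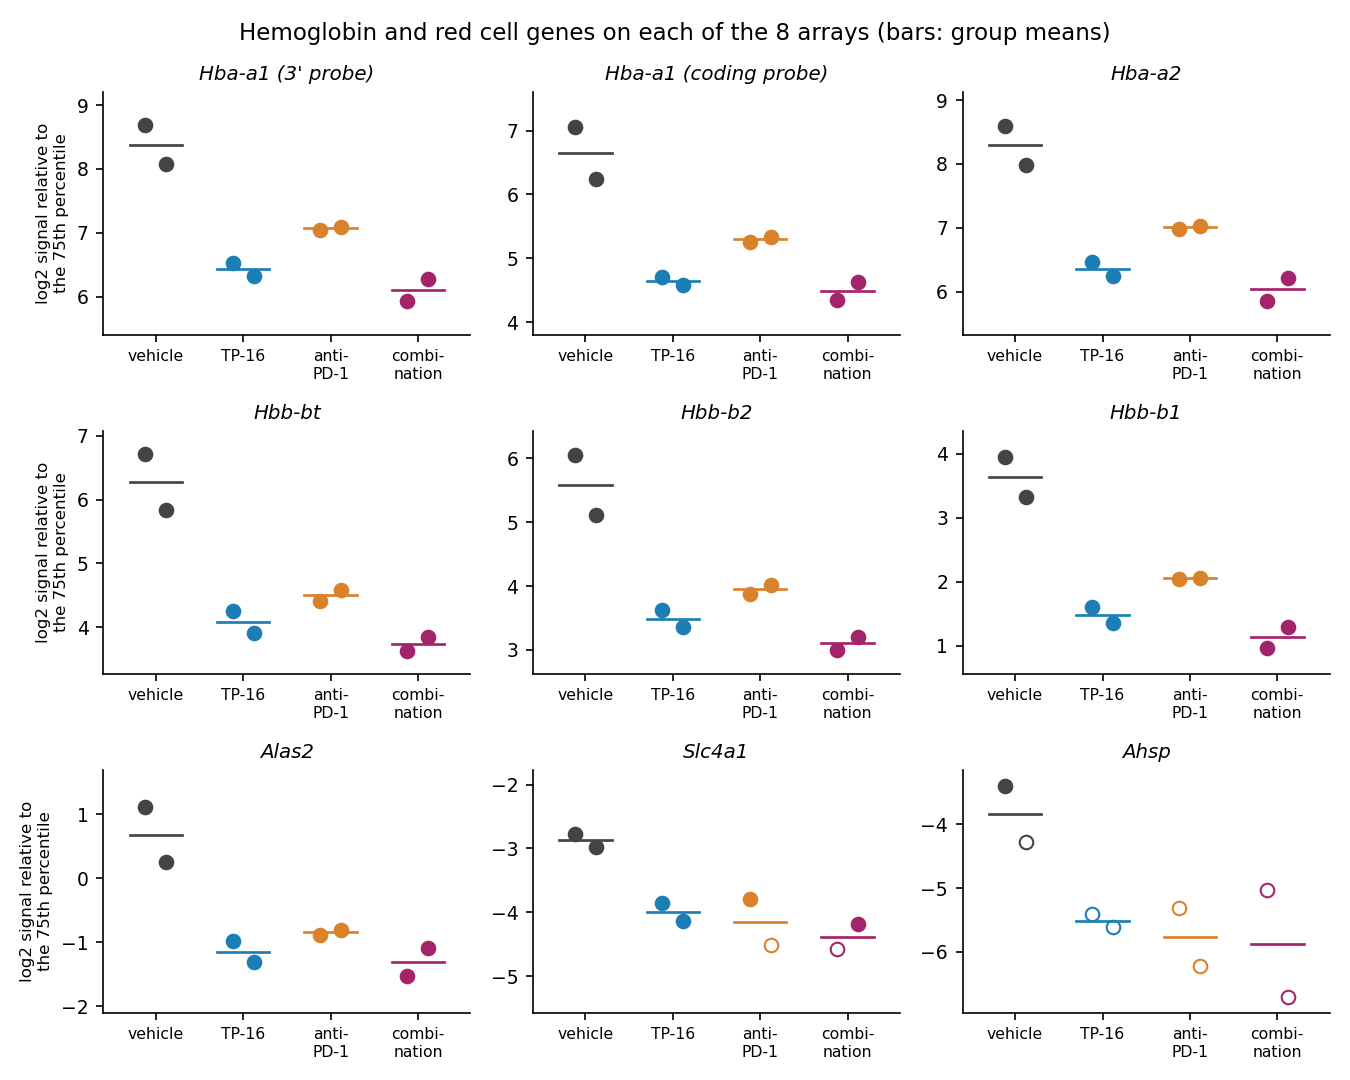
Each panel shows a probe on the 8 arrays as log2 signal relative to the array's 75th percentile, with points for the 2 arrays of a group, bars for their mean and open points for values not well above background. Both vehicle arrays lie above every treated array in all 9 panels, from 8.68 and 8.07 for the 3′ probe of Hba-a1 to −3.40 and −4.27 for Ahsp, and the axes span different ranges.

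All 7 tested members were at least 2-fold lower than vehicle in each treated group, and their arrays did not overlap with those of vehicle. Over all genes tested, 7.24% were at least 2-fold lower with TP-16, 3.16% with anti-PD-1 and 12.1% with the combination. The members were chosen on this contrast, so nothing is read from their count or their lack of overlap. No share over all genes is given for the overlap. The median log2 difference over the members was −1.95 with TP-16 (range −2.19 to −1.12), −1.53 with anti-PD-1 (−1.78 to −1.27) and −2.28 with the combination (−2.54 to −1.50), against medians over all genes of −0.15, −0.10 and −0.24. Closest to the 2-fold mark were Slc4a1 with TP-16, and Slc4a1 and the α globins with anti-PD-1. When 1 array was left out, 6 to 7 members stayed at least 2-fold lower with TP-16 and with anti-PD-1, and 7 with the combination. Slc4a1 stood at −0.975 with TP-16 without TP-16 replicate 2 and at −0.9193 with anti-PD-1 without anti-PD-1 replicate 2, and Hba-a2 at −0.9838 with anti-PD-1 without vehicle replicate 1. Across the 8 arrays, the 21 pairs of tested members had correlations from 0.88 to 1.00 with a median of 0.99, the highest being that of Hba-a1 and Hba-a2, whose probes nearly coincide. These are descriptions over arrays on which the vehicle pair stands apart, and the lowest values all involved the dim Slc4a1. Within vehicle and TP-16 the members differed between replicates in the same direction. On all 9 probes vehicle 1 read higher than vehicle 2, by 0.22 (Slc4a1) to 0.94 (Hbb-b2), and TP-16 1 higher than TP-16 2, by 0.12 to 0.35. The opposite held in the combination group, where array 1 read lower by 0.21 to 0.43 on all probes but that of Ahsp, which was not above background on either array. In the anti-PD-1 group the replicates differed by −0.17 to −0.02 on the globin and Alas2 probes, but by 0.71 for Slc4a1 and 0.92 for Ahsp, in the other direction.

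The size of these differences depended on how the arrays were brought to a common scale. The 75th percentile of the signal was 371 and 378 with vehicle, 398 and 415 with anti-PD-1, 530 and 551 with TP-16, and 607 and 734 with the combination, so dividing by it lowers the treated values. Without any scaling, a setting added after the values were seen, Hbb-bt was 3.17-fold lower with TP-16, 3.17-fold lower with anti-PD-1 and 3.27-fold lower with the combination. Hba-a1 was then 2.67-, 2.28- and 2.72-fold lower. Quantile normalization placed the members' median at −1.79, −1.52 and −1.97, and the authors' deposited values at −1.79, −1.52 and −1.97 as well. The median of all genes in the combination contrast moved from −0.24 to −0.05 with quantile normalization and to 0.60 without scaling, and relative to it the members' median was −2.04, −1.92 and −2.04. The first and last of these relative values must be equal, since leaving out the scaling moves every gene of a contrast by the same amount. Under each of these scalings all 7 tested members were lower than vehicle in every treated group. Slc4a1 was under 2-fold lower in all 3 contrasts with quantile normalization, and in those of TP-16 and the combination without scaling. The same change of scale moved the split of all called genes: genes lower than vehicle were 61.1% of the calls with the combination and 35.2% with quantile normalization, and 76.8% and 37% for TP-16.

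**Figure D2:**
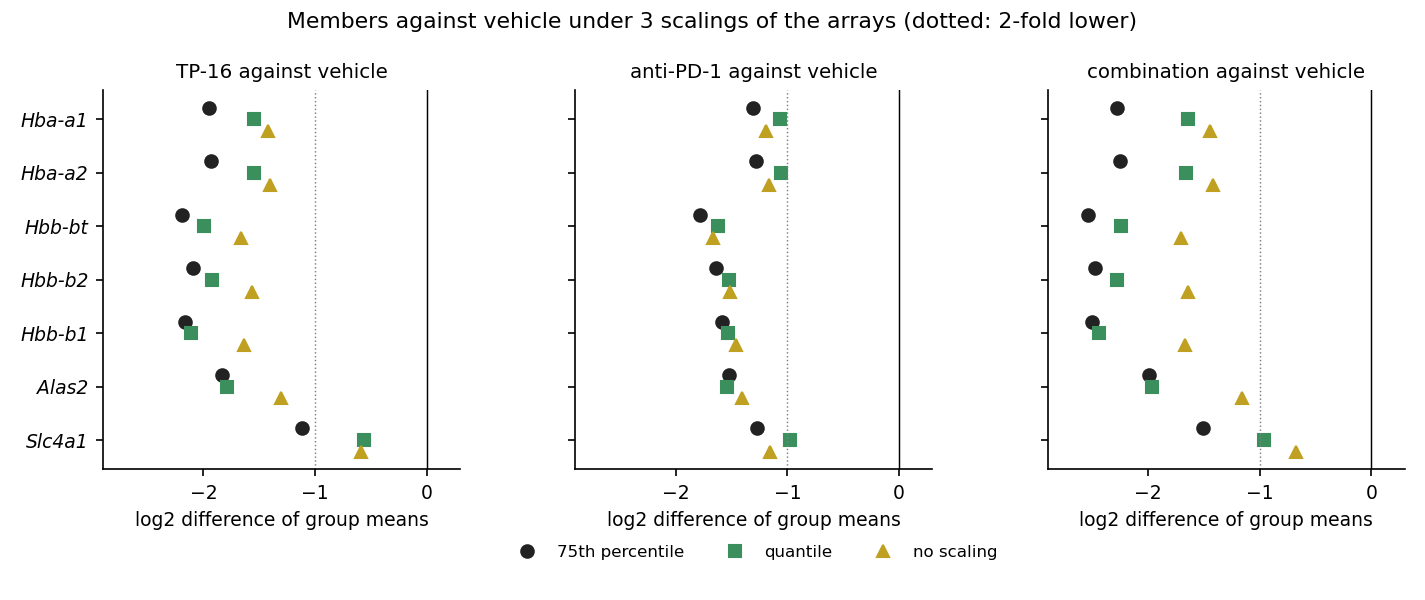
The log2 difference of group means between each treated group and vehicle is plotted for the 7 tested members under the 75th percentile scaling (circles), quantile normalization (squares) and no scaling (triangles), with a dotted line at 2-fold lower. All points lie left of 0, and without scaling Hbb-bt sits at −1.66, −1.66 and −1.71 in the 3 contrasts.

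The treated groups were then compared with each other, which asks whether both agents together differed from either alone. These contrasts did not choose the members and were tested with limma. No tested member was called, that is, passed a fold of 2 at the nominal level of 0.05, in any of the 3 contrasts, where 0.888% of all genes were called lower in the combination than with TP-16, 2.32% lower than with anti-PD-1 and 1.49% lower with TP-16 than with anti-PD-1. The combination was closest to TP-16, with members' differences from −0.39 (Slc4a1) to −0.16 (Alas2) and adjusted p from 0.444 to 0.811. For Hba-a1 the difference was −0.33 (SE 0.23) with a 95% interval of −0.90 to 0.25, so that a 1.5-fold lower level in the combination lies within it. Against anti-PD-1, the combination gave Hba-a1 at −0.97 (SE 0.23, limma adjusted p = 0.0857) and Hbb-b1 at −0.92 (SE 0.24, limma adjusted p = 0.0945). Hbb-b2 stood at −0.84 (SE 0.31, limma adjusted p = 0.162) and Hbb-bt at −0.76 (SE 0.30, limma adjusted p = 0.184). Alas2 (−0.46) and Slc4a1 (−0.23) had intervals that include 0. Each globin difference between the combination and anti-PD-1 stayed under 2-fold and over the 5% level after adjustment. TP-16 against anti-PD-1 gave Hba-a1 at −0.64 (SE 0.23, limma adjusted p = 0.551), Hbb-bt at −0.41 and Slc4a1 at 0.16. Leaving out the scaling moves every gene of a contrast by the same amount, and the members' median was then −0.04 between the combination and TP-16, −0.13 between the combination and anti-PD-1 and −0.04 between TP-16 and anti-PD-1, with medians over all genes of 0.21, 0.58 and 0.35. Relative to all genes the members' median was −0.25, −0.70 and −0.40 with and without the scaling. Alas2 stood at 0.15 in the combination against TP-16 and at 0.25 against anti-PD-1 without scaling, both below the median over all genes. The position of the arrays on their shared slide cannot be told apart from treatment here, as the row of the slide matched the antibody and the column pair matched TP-16.

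**Figure D3:**
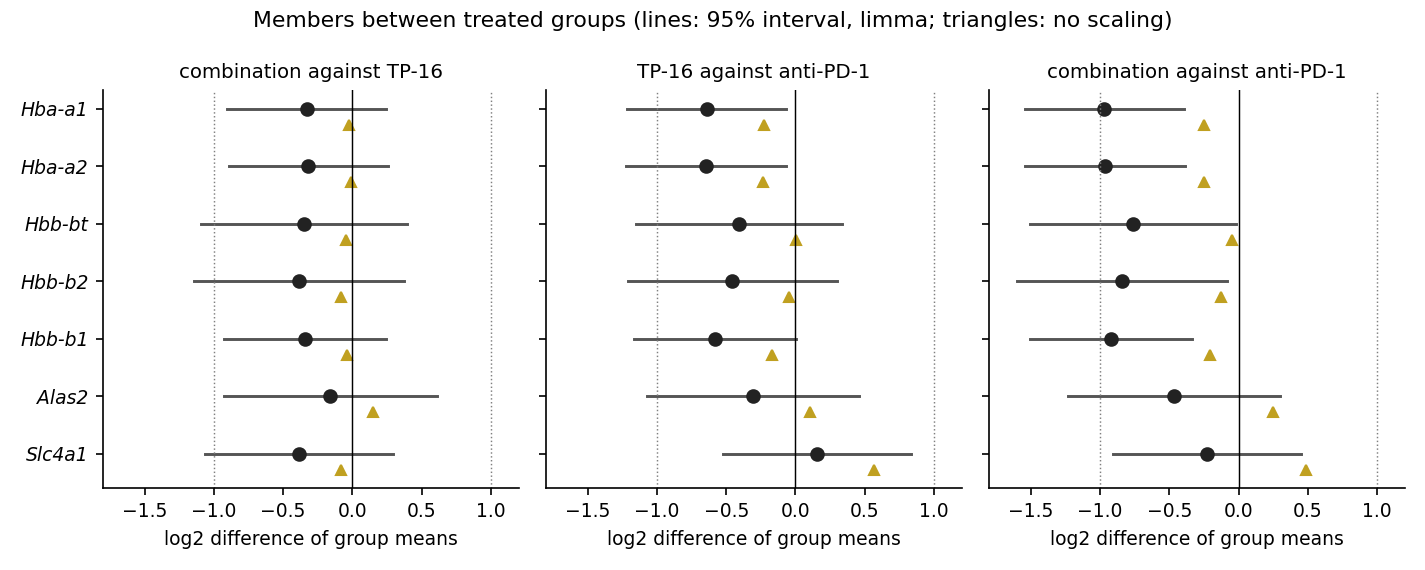
Log2 differences between treated groups are shown for the 7 tested members as points with 95% intervals from limma, with triangles for the difference without scaling and dotted lines at 2-fold in either direction. No point reaches the dotted lines, the intervals of the 5 globin probes exclude 0 in the contrast of combination and anti-PD-1 (Hba-a1 at −0.97), and the triangles of the globins lie closer to 0 than the points.

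Outside the members, the other globin genes were examined, of which 4 of 9 were tested. Hbb-y, an embryonic β-like globin, was well above background on both vehicle arrays (−2.44 and −2.81) and on no treated array, where it read between −6.83 and −4.15. It was at least 4.42-fold lower with TP-16, at least 2.67-fold lower with anti-PD-1 and at least 4.25-fold lower with the combination. Hbb-y entered the fit only through the vehicle arrays, so its calls were favored by the filter and no p is given. Hbb-bh1, another embryonic β-like gene, read 0.60 and 0.83 with vehicle and −0.18 and −0.61 with the combination, a fall of 2.15-fold (SE 0.26 on the log2 scale, adjusted p = 0.0274). With TP-16 it read −0.34 and −0.05 (1.88-fold lower), and with anti-PD-1 0.05 and 0.68, which overlaps the vehicle arrays. Without scaling, which moved the median over all genes of this contrast from −0.24 to 0.60, Hbb-bh1 stood at −0.27, and without combination replicate 2 it stood at −0.8935. Cygb, a globin of connective tissue cells, rose with the combination by 1.12 on the log2 scale (adjusted p = 0.0387), or 0.855 without combination replicate 2, and myoglobin (Mb) stood at 1.42 with adjusted p = 0.115. Hba-x, Hbq1a, Hbq1b, Ngb and Hbb-bh2 were too dim to test.

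The other genes of the red cell lineage did not share the members' pattern as a group. In 3 lists of 57 such genes, compiled with earlier results of these arrays known, 45 were tested. Against vehicle, 3 were called lower and 1 higher with TP-16, 2 lower and 1 higher with anti-PD-1, and 1 lower and 4 higher with the combination. Over all genes the shares called lower were 5.12%, 2.25% and 10.4%, and those called higher 1.55%, 1.89% and 6.63%, in the same order. With adjusted p-values, 0 of the 45 passed with either single agent and 4 with the combination, where 14.2% of all genes passed. The median over the 45 genes was −0.04, −0.07 and −0.16, and over all genes −0.15, −0.10 and −0.24.

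The regulators of the lineage were dim, and their calls went both ways. Klf1, the factor that activates adult β globin genes, was called lower with TP-16 and anti-PD-1, but was well above background on 3 arrays, of which 1 was a vehicle array, so no fold is given. Without vehicle replicate 2 its difference with TP-16 was −0.9907, and with no filter on dim probes its difference with anti-PD-1 turned to 1.18. Gfi1b, a repressor of the megakaryocyte and erythroid lineages, was called lower with TP-16 (adjusted p = 0.126) although neither that group nor vehicle had it well above background on any array, so no fold is given. Gata1, the master regulator of the lineage, was not well above background with vehicle and was at least 1.62-fold higher with the combination and at least 1.24-fold higher with anti-PD-1. Bcl11a, a repressor of embryonic globin genes that lymphocytes also express, was at least 3.63-fold higher with the combination and at least 1.98-fold higher with TP-16, but the median over all its tested probes was 0.85 and −0.04 on the log2 scale. Gata1 and this Bcl11a probe entered the fit only through treated arrays, so the filter favored their calls and no p is given. Klf1 and Gfi1b were named after their values were seen. Gata1 stood at −0.10 in the combination after the normexp background correction.

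In the membrane and skeleton list 10 of 17 genes were tested. The other 7, among them the defining red cell genes Sptb, Epb42, Rhag, Kel and Xk, were not well above background on both arrays of any group. Gypc, the glycophorin C gene, which other cells also express, rose by 1.12 with the combination (SE 0.22, adjusted p = 0.0182), and by under 2-fold without vehicle replicate 2 (0.9385). Tmod1, a cap of short actin filaments, was also called higher, but it was well above background only on the combination arrays, through which it entered the fit, and its level leaves no bound above 1. None of the 10 was called lower in any treated group. In the list of heme synthesis and iron uptake all 14 genes were tested and none was called in any contrast with vehicle. The brightest, Urod and Blvrb, an enzyme of heme synthesis and a biliverdin reductase of red cells, stood at −0.59 and −0.10 with the combination. Alas2, the erythroid isoenzyme among the members, was 3.97-fold lower in that contrast, and its housekeeping counterpart Alas1, named after its value was seen, stood at 0.36 on the log2 scale.

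**Figure D4:**
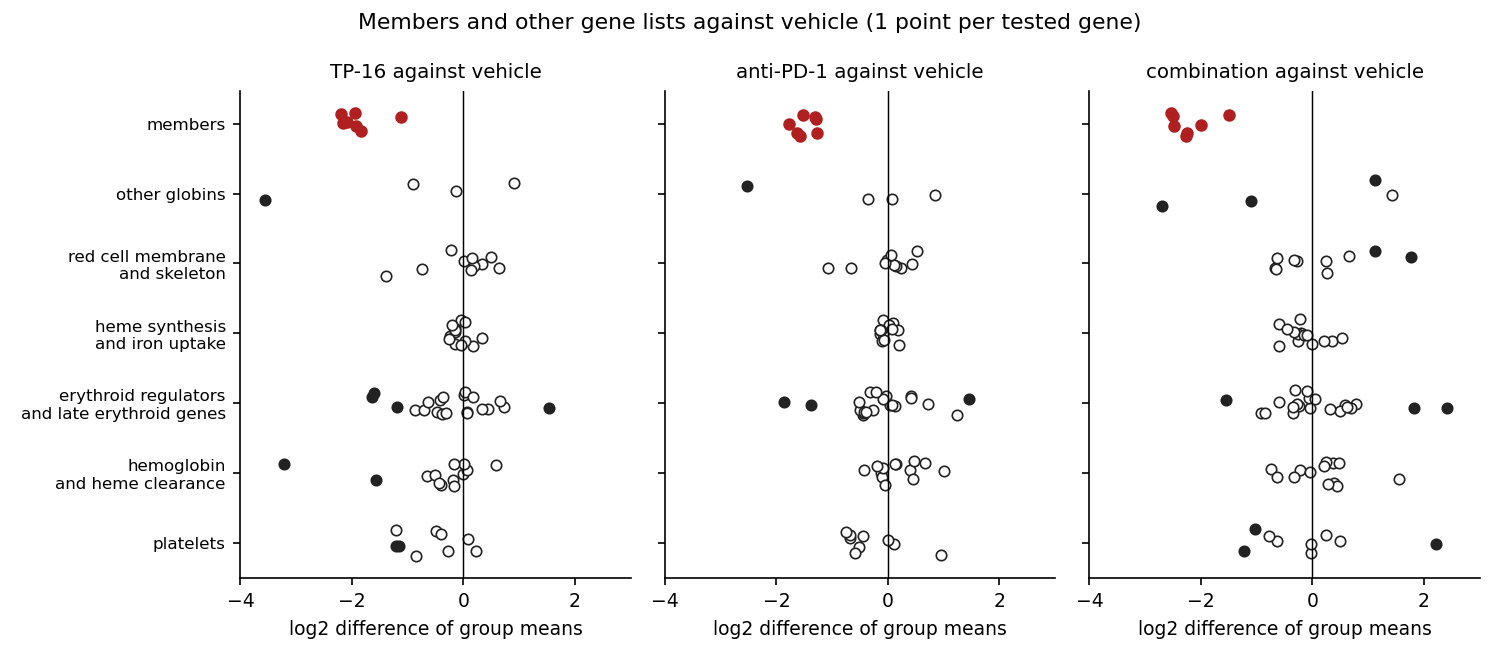
Each point is a tested gene at its log2 difference from vehicle, with the members in red (no test) and other lists in black, filled where a gene was called. The members lie between −2.54 and −1.12, and none of the 14 genes of heme synthesis and iron uptake is filled in any panel.

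Genes that handle hemoglobin after red cells break down were tested next, all 13 of their list. With the combination and with anti-PD-1 none was called. Hmox1, heme oxygenase 1, which opens the heme ring, read 5.27 and 5.02 with vehicle, 5.74 and 5.47 with anti-PD-1 and 5.20 and 5.58 with the combination, but 1.11 and 2.74 with TP-16. The fall with TP-16 was 3.22 on the log2 scale (SE 0.51, limma adjusted p = 0.0744). The test of a departure from additivity, by which the combination would differ from the sum of the single agents, gave 2.9969 on the log2 scale (SE 0.72, limma adjusted p = 0.489). Slc40a1, the iron exporter ferroportin, was lower with TP-16 by 1.57 (limma adjusted p = 0.187), a call that ended under 12 of 20 alternatives, and without TP-16 replicate 2 the difference was −0.7044. Hmox1 and Slc40a1 were named after their values were seen. The ferritin chains Fth1 and Ftl1 stood at −0.64 and −0.75 with the combination, each under 2-fold. A dimmer Ftl1 probe read 5.98 and 5.76 with vehicle and 5.89 and 6.21 with the combination, which overlap.

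Markers of the cells that share blood and vessels with red cells were read beside the members. Of 14 platelet genes 9 were tested. The platelet chemokine genes Pf4 and Ppbp were lower with TP-16 by 1.16 (adjusted p = 0.0901) and 1.21 (adjusted p = 0.110), and with the combination by 1.03 (adjusted p = 0.0254) and 1.22 (adjusted p = 0.0385), and with anti-PD-1 they stood at −0.45 and −0.68. Both calls ended without vehicle replicate 1 (Pf4 at −0.81 and −0.68, Ppbp at −0.68 and −0.69). The receptor gene Gp1ba was called higher with the combination, but it entered the fit only through the combination arrays, its bound was 1.07-fold, and after normexp it stood at −0.0488. The summed platelet signal was 45.7 to 69.9 times the 75th percentile with vehicle, 25.2 to 28.3 with TP-16, 41.5 to 42.6 with anti-PD-1 and 28.8 to 32.5 with the combination. The sum weights bright probes such as that of Pf4. The mean log2 value over the tested platelet genes was −1.72 and −1.19 with vehicle, −2.06 and −2.02 with TP-16, −1.67 and −1.82 with anti-PD-1, and −1.65 and −1.42 with the combination, which overlaps vehicle. All 15 endothelial genes were tested and none was called lower in any treated group, while Vwf (1.54, adjusted p = 0.0453) and Tek (1.26, adjusted p = 0.0760) were called higher with the combination. Without vehicle replicate 1 Vwf stood at 0.914, and without combination replicate 2 Tek stood at 0.9634, both under 2-fold. The summed endothelial signal was 50.7 to 52.2 with vehicle, 28.1 to 41.7 with TP-16, 39.5 to 47.0 with anti-PD-1 and 48.7 to 65.7 with the combination. Of 11 neutrophil genes 10 were tested, and S100a8 (−1.09) and S100a9 (−1.20) were called lower with the combination, with adjusted p of 0.0177 and 0.0195, and both were under 2-fold lower without vehicle replicate 2 (−0.79 and −0.85). The summed neutrophil signal was 112 to 120 with vehicle, 93.6 to 96.9 with TP-16, 103.6 to 103.7 with anti-PD-1 and 60.4 to 77.6 with the combination. Of the other 8 neutrophil genes none was called with the combination, 6 stood above 0 and 2 below it (Csf3r at −0.56 and Cxcr2 at −0.17), Lcn2 was called higher with TP-16 (1.33, limma adjusted p = 0.129), and the mean log2 value over the list was −0.83 and 0.05 with vehicle and −0.17 and 0.03 with the combination. Among 5 tested genes of 7 that mark colon carcinoma cells, Krt8 (−2.68), Krt18 (−1.39) and Cdx2 were called lower with the combination, with adjusted p of 0.0525 for Krt8 and 0.0196 for Krt18. The other tested genes were not called, with Krt19 at −0.73 and Cdh1 at 0.82. The Krt8 call ended without vehicle replicate 1 (−2.03). Cdx2, an intestinal transcription factor, was at least 6.90-fold lower there, and was also called lower with TP-16 and with anti-PD-1, each with 1 of 2 arrays well above background. It entered the fit only through the vehicle arrays, so no p is given. The summed signal of the list was 9.30 to 13.4 with vehicle, 7.01 to 8.98 with TP-16, 7.48 to 8.15 with anti-PD-1 and 3.47 to 5.18 with the combination, and Epcam and Vil1 were too dim to test. The part of these cell types in the members' levels was not tested.

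Finally, the genes whose profile over the 8 arrays was most like that of the members were listed among 18407 genes well above background on every array. The members' profile is the mean over the 7 tested genes after each was centered on its own mean. The closest were Zdhhc22 (r = 0.99), Igfbp3, which encodes an insulin-like growth factor binding protein (r = 0.98), Stimate (r = 0.98), Asphd1 (r = 0.98), Pla2g4a, the cytosolic phospholipase A2 that frees arachidonic acid (r = 0.98), Palm3 (r = 0.98), a probe with no gene name in the files (r = 0.98) and Hoxa7 (r = 0.97). Their mean on the vehicle arrays exceeded that on the treated arrays by 1.77 for Zdhhc22, 1.18 for Palm3 and 0.94 for Igfbp3, and by 0.31 for Stimate. Zdhhc22 read −1.09 and −1.66 with vehicle, −3.04 and −3.08 with TP-16, −2.88 and −2.72 with anti-PD-1, and −3.59 and −3.56 with the combination. These correlations are over 8 arrays with the vehicle pair apart from the rest and are given with no test. From the lists above, Ppbp (r = 0.94) and Cdx2 (r = 0.91) were among the closest.

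**Figure D5:**
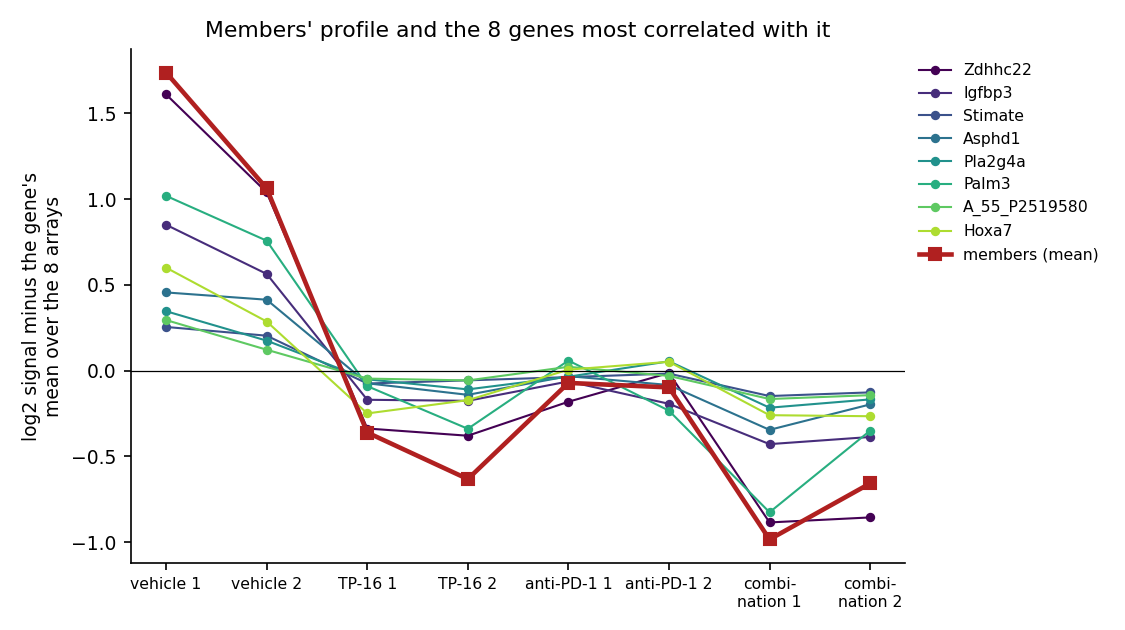
Lines show the log2 signal of each gene minus its mean over the 8 arrays, in red for the mean of the 7 tested members and in other colors for the 8 genes most correlated with it. The vehicle arrays are highest on every line, and Zdhhc22 has a spread close to that of the members while Stimate differs by 0.31 between vehicle and treated arrays.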

How the data were processed

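Total tumor RNA was read on 8 one-color Agilent mouse arrays (2 in each of 4 groups) on 1 slide in 1 scan. The authors deposited scanner files from Agilent Feature Extraction 10.7.1.1 with processed intensity per spot (mm9 annotation), and log2 values normalized in GeneSpring, with an algorithm not given in the sources used here. Their columns share a median of 5.16, and every tested member was lower than vehicle in them, as in the scanner values. From the deposited intensity, outlier spots and control spots were dropped, spots of a probe averaged (56567 probes), each array divided by its 75th percentile and log2 taken. A probe was kept if at least 1 group had it well above background on each of its arrays (31912). Genes took their brightest probe, named by RefSeq where the accession matched (32971 probes). Group means were fitted with limma 3.58.1 without a block, with Benjamini-Hochberg adjustment over all kept probes. "Called" means a fold of 2 at an unadjusted limma level of 0.05, the thresholds of the study's methods. Between 51.4% and 59.7% of probes were well above background, and the number of arrays limits the precision. The fit was tested on simulated data. A bound sets the brighter group against the dimmest probe above background. The members and gene lists were chosen with earlier results of these data known. Named genes were all members and other globins, up to 5 called genes per list in the combination (or the brightest pair), and the 8 genes most like the members. Alternatives were quantile normalization, normexp with an offset of 50, other filters, the median probe, the replicate number as a block, the deposited values, each array left out, and for tests the compared groups alone, trended moderation, the methods' t-test and a fold of 1.5. Single-gene results of some list genes are not reported here.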

Additional observations from a re-analysis of the deposited data

How the results depend on the processing

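All 7 tested members stayed lower than vehicle in every treated group under each alternative that kept them (Slc4a1 was not above background on all 8 arrays), and leaving out 1 array moved their median between −2.26 and −1.63 with TP-16, −1.90 and −1.17 with anti-PD-1, and −2.58 and −1.97 with the combination. Without scaling between arrays, a setting added after the values were seen, the median was −1.42 with TP-16 and −1.44 with the combination. Between treated groups, a fold of 1.5 called 2 members lower with TP-16 than with anti-PD-1 and 5 lower in the combination than with anti-PD-1 (Hba-a1 and Hba-a2, read by nearly the same probe, count as 2), where leaving out 1 array gave 0 to 3 calls (3 without combination replicate 2). The calls among the other 45 erythroid genes were 4 with TP-16, and became 1 after normexp, 1 with probes above background on all 8 arrays, 1 by the methods' t-test and 8 at a fold of 1.5, with 1 to 5 when 1 array was left out (1 without TP-16 replicate 2). With anti-PD-1 the 3 calls became 0 after normexp and 1 with probes above background on all 8 arrays, and 2 to 5 when 1 array was left out (5 without vehicle replicate 2). With the combination the 5 calls became 2 after normexp, 9 with no filter on dim probes, 2 with probes above background on all 8 arrays, 3 by the methods' t-test, 12 at a fold of 1.5 and 14, all higher, without scaling (where 5344 of all genes were called higher and 405 lower), and 3 to 5 when 1 array was left out (3 without combination replicate 2). Signs turned in small differences between treated groups: for Alas2 the combination minus TP-16 ranged from −0.3748 to 0.058 when 1 array was left out, above 0 without TP-16 replicate 1 or combination replicate 1, and was 0.15 without scaling, the combination minus anti-PD-1 was 0.25 and TP-16 minus anti-PD-1 0.11 without scaling, and for Hbb-bt the last difference was 7e-04. For Slc4a1, TP-16 minus anti-PD-1 was −0.19 after normexp and −0.20 to 0.513 when 1 array was left out (−0.20 without anti-PD-1 replicate 2), and the combination minus anti-PD-1 was 0.0077 with quantile normalization, 0.0074 in the deposited values, 0.49 without scaling and −0.585 to 0.126 when 1 array was left out (0.126 without anti-PD-1 replicate 1). Against vehicle, normexp turned Gata1 (−0.10), Gp1ba (−0.0488) and Tmod1 (−0.23) in the combination, the median probe turned Bcl11a with TP-16 (−0.0415), and no filter turned Klf1 with anti-PD-1 (1.18). The causes were not tested. Arrays of the same replicate number shared only a number (correlations of deviations from −0.19 to 0.29), and with the replicate number as a block the members' median stayed at −1.95, −1.53 and −2.28 and no member was called between treated groups.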

Other observations

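Hemgn and Dmtn, genes of the red cell lineage whose values were noticed after they were seen, varied between arrays of a group in a way the members did not. Hemgn, by 1 of its 2 probes, read 4.47 and 7.05 with vehicle, 5.98 and 6.85 with TP-16, 5.68 and 4.82 with anti-PD-1, and 5.77 and 6.75 with the combination. The brighter Dmtn probe read 1.38 and 3.94, 2.54 and 3.78, 2.45 and 1.57, and 2.33 and 3.47 in the same order. Over the 8 arrays this Dmtn probe had a correlation of 0.99 with Hemgn and the other Dmtn probe one of 0.13, given as a description with no test.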
